A study of Mus musculus with 21 samples.

Results

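The genes described here are 38 mouse genes of protein folding in the endoplasmic reticulum (ER) and of the unfolded protein response, out of 47643 genes in the count table. They were taken by symbol from a list and comprised 9 chaperones and co-chaperones, 4 lectin chaperones and cargo receptors, 7 disulfide and proline folding enzymes, 6 stress sensors and transcription factors, 4 genes of ER-associated degradation and 8 genes of the translocon and signal peptidase. All 38 were among the 14801 genes that passed the filter on low counts. The question was whether their transcripts followed the load of neutrophil granule protein transcripts across myeloid progenitors.

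RNA was sequenced from 7 populations of hematopoietic progenitors sorted from the bone marrow of C57/B6 mice, with 3 libraries per population and no treatment or transgene in any of them. Common myeloid progenitors (CMPs) and granulocyte-monocyte progenitors (GMPs) were lineage-negative, SCA-1-negative, C-KIT-positive and CD34-positive cells, and GMPs were told from CMPs by the Fc receptors CD16/32. Both were sorted whole (bulk CMP, bulk GMP) and by the level of CD62L on their surface. The sort gave CD62L-low CMP (named CD62L-neg CMP by the study), CD62L-high CMP, CD62L-neg GMP, CD62L-low GMP (named CD62L-int GMP by the study) and CD62L-high GMP. The GMP fractions were taken from parts of the CD62L range, and a CMP fraction of intermediate CD62L level was not analysed here, so a bulk population also holds cells that are in none of its fractions. Nothing in the labels ties replicates to separate mice, so p-values measure the spread between these libraries, which may be technical.

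Proteins that enter the secretory pathway are threaded into the ER through the Sec61 channel, lose their signal peptide, and are folded by chaperones such as BiP (Hspa5), by the calnexin and calreticulin lectins and by protein disulfide isomerases. When unfolded protein accumulates, the sensors IRE1 (Ern1), PERK (Eif2ak3) and ATF6 (Atf6) switch on the unfolded protein response, in which spliced XBP1 and cleaved ATF6 raise chaperone genes, and PERK signaling raises ATF4 and then CHOP (Ddit3). Progenitors at the GMP stage fill primary granules with myeloperoxidase and the neutrophil serine proteases, all of which are folded in the ER. Counts per gene do not separate spliced from unspliced Xbp1 and say nothing of the sensors' activity.

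Both arms that raise chaperones are known to act through the ER stress response element (ERSE), here searched on both strands as CCAAT and CCACG with any 9 bases between them. RefSeq promoters of GRCm38.p6, from 250 bases before to 50 bases after the start, were matched for 31 of the 38 genes. For 28 of the 31, bases after the start were found in a transcript of the gene. Of these 31 genes, 9 (29.032%) held the motif in any of their promoter entries, against 39 of 32851 promoters of the table (0.119%). The first share counts genes and the second counts entries, those of the 31 genes included, so the 2 are not strictly alike. The shorter ERSE-II, which is ATTGG, any base and CCACG, was found in 2 of the 31 (Dnajb11 and Herpud1) and in 0.037% of all promoters. The unfolded protein response element TGACGTGG and the amino acid response element TGATGCAAT were found in none of the 31, and in 0.676% and 0.192% of all promoters. A match describes the letters and is not a measured site. The windows below belong to genes whose levels are followed in the results. They read 5′ to 3′ on the strand of the gene, and capitals mark the fixed letters of the motif, which stand as CGTGG and ATTGG where it lies on the other strand.
Hspa5, chr2:34772020-34772048, plus strand, 46 bases before the start: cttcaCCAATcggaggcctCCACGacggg
Hsp90b1, chr10:86705633-86705661, minus strand, 193 bases before the start: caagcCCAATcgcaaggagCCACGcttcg
Hsp90b1, second match, chr10:86705528-86705556, minus strand, 88 bases before the start: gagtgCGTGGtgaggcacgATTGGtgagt
Calr, chr8:84847070-84847098, minus strand, 143 bases before the start: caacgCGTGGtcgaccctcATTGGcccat
Canx, chr11:50325795-50325823, minus strand, 126 bases before the start: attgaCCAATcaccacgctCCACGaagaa
Creld2, chr15:88819515-88819543, plus strand, 107 bases before the start: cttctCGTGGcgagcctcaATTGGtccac
Pdia6, chr12:17266486-17266514, plus strand, 79 bases before the start: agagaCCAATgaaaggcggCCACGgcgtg
Ero1lb, chr13:12565677-12565705, plus strand, 182 bases before the start: ggcctCGTGGtcccgcctcATTGGccgcc
Herpud1 (ERSE-II), chr8:94386372-94386392, plus strand, 41 bases before the start: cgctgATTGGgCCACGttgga

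Library totals ran from 6145834 to 15263573 counts. Bulk CMP replicate 2 and CD62L-high GMP replicate 1 stood apart: 3 gene models (Gm23935, Gm26917 and Gm42418) took 61.0% and 41.1% of their counts, against 22.4 to 31.7% in the other 19 libraries. Their deviations from their own populations resembled each other, with r = 0.51 over the 14801 genes and r = 0.85 over the 38 genes described here. Counts of the 38 genes called higher or lower, and values of some genes, are therefore also given without both. The other values include them. The study left out 1 bulk CMP library, which it does not identify, and all 3 were used here. Fcgr3, which encodes CD16, had 6.54 to 15.7 CPM in CMP libraries and 131 to 189.9 CPM in GMP libraries.

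The most abundant of the 38 transcripts per length was Calr, the calcium-binding lectin chaperone calreticulin, with mean levels from 263 CPM per kilobase in CD62L-low CMP to 1201 CPM per kilobase in CD62L-neg GMP. P4hb, a protein disulfide isomerase, ranged from 101 to 440.2 CPM per kilobase, and Hspa5 from 116 to 321 CPM per kilobase. At the other end stood Ero1lb, an oxidase that recharges disulfide isomerases, with 1.16 to 5.79 CPM per kilobase. Mpo, which encodes myeloperoxidase, went from 316 to 6038 CPM per kilobase over the same populations. Summed over the 38 genes, the level was 4594 to 7503 CPM in the 9 CMP libraries and 7717 to 14184 CPM in the 12 GMP libraries, and the lowest GMP library was CD62L-high GMP replicate 1.

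**Figure D1:**
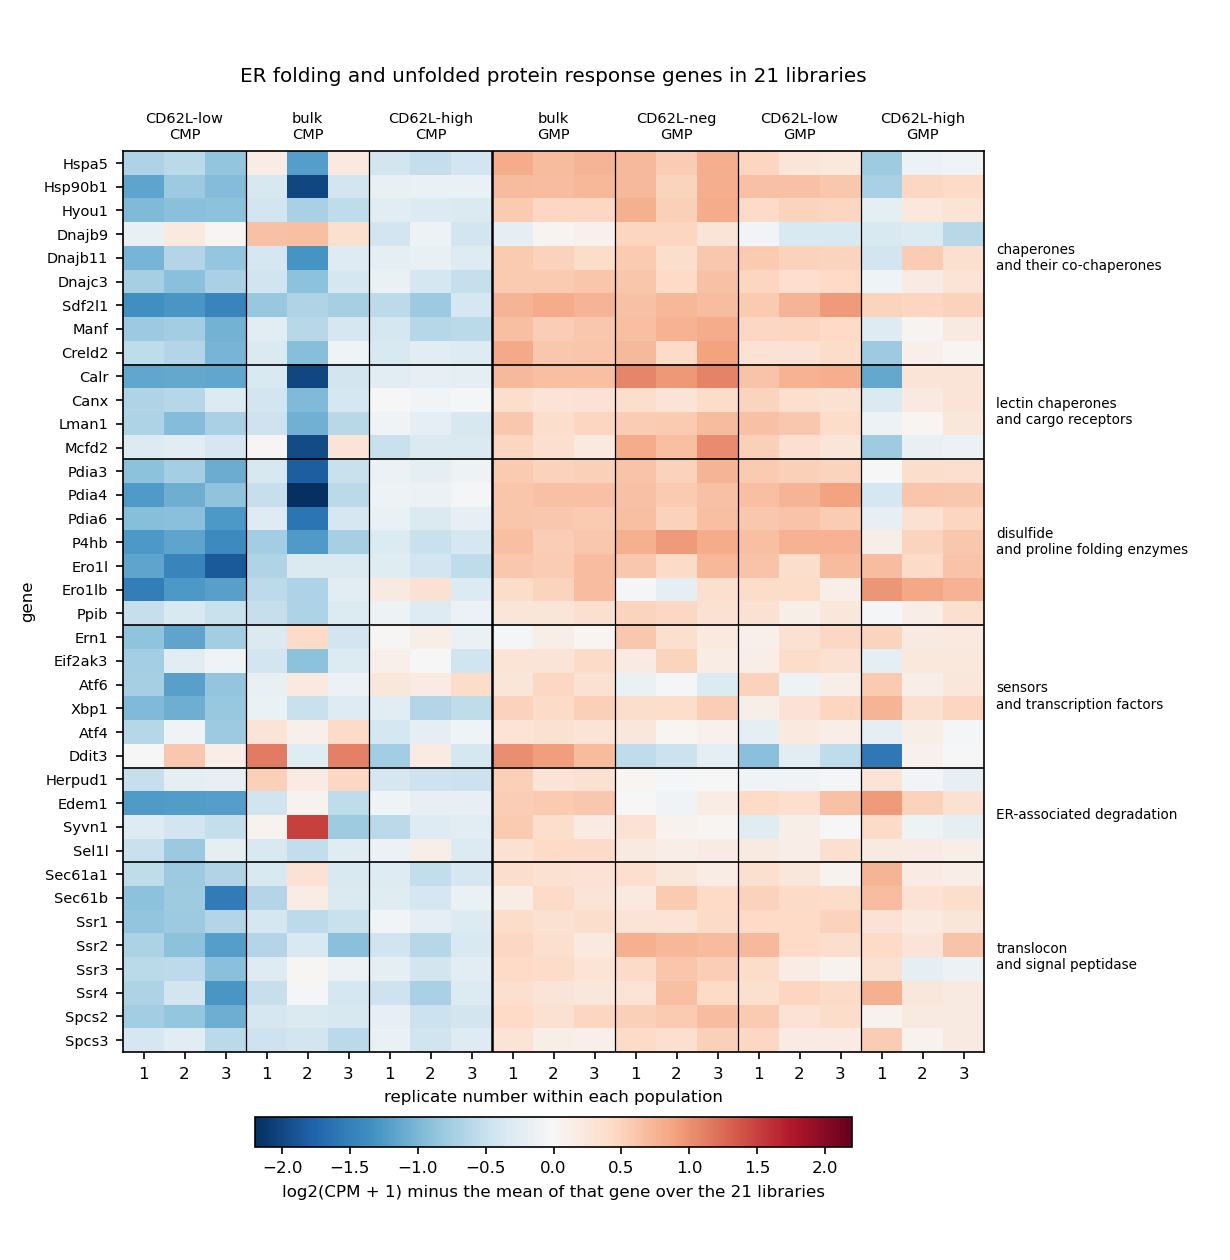
Level of each of the 38 genes (rows, grouped by role) in each of the 21 libraries (columns, grouped by population), coloured by log2(CPM + 1) minus the mean of the gene over all libraries. Most chaperone, lectin and folding enzyme rows are low in the CMP columns and high in the GMP columns, and they are lower again in the 3 CD62L-high GMP columns than in the CD62L-neg GMP columns.

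Bulk GMP was compared with bulk CMP to ask how the folding genes differ across the step at which granule cargo rises. Of the 38 genes, 28 were higher in bulk GMP and 1 was lower, at an adjusted p under 0.05 in edgeR's quasi-likelihood test with Benjamini-Hochberg adjustment over all genes tested. The same test called 9.72% of all genes higher and 10.9% lower. The median log2 fold change of the 38 was 0.87, and that of all genes was 0.00. Libraries of both populations did not overlap for 29 genes that were higher and 1 that was lower, against 19.0% and 16.6% of all genes. With a fold over 2 as well, 15 genes were higher and 0 lower, against 4.19% and 7.30% of all genes. In these bulk samples, fewer cells of a type and less RNA per cell cannot be told apart. All 5 core granule cargo genes were higher as well, with log2 fold changes of 1.98 for Mpo, 3.51 for Elane (neutrophil elastase), 1.97 for Prtn3 (proteinase 3), 2.24 for Ctsg (cathepsin G) and 2.26 for Prss57. A gene on the opposite strand, Fstl3, overlaps 40.7% of the exon length of Prss57, so part of the Prss57 counts is uncertain.

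The disulfide and proline folding enzymes were the role in which every gene was higher, 7 of 7. Pdia4, a disulfide isomerase, had 199.8, 58.9 and 187 CPM in bulk CMP and 435, 443 and 444 CPM in bulk GMP. The populations did not overlap, and the log2 fold change was 1.56 (SE 0.28, adjusted p = 0.000352). P4hb had 412, 294 and 425 CPM in bulk CMP and 1111, 1022 and 1063 CPM in bulk GMP, a log2 fold change of 1.50 (SE 0.15, adjusted p = 1.35e-07). Pdia3, which acts on glycoproteins bound by calnexin and calreticulin, and Pdia6 were higher by log2 fold changes of 1.29 (SE 0.22, adjusted p = 0.000214) and 1.24 (SE 0.22, adjusted p = 0.000281). Of these 4, replicate 2 was the lowest bulk CMP library each time. Without both deviating libraries the log2 fold changes were 1.18 for Pdia4, 1.34 for P4hb, 0.95 for Pdia3 and 0.92 for Pdia6, and all 4 still passed.

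Among chaperones, 8 of 9 were higher and Dnajb9 was lower. Sdf2l1, a cofactor of BiP, had 34.4, 38.9 and 36.9 CPM in bulk CMP and 105, 109.9 and 105 CPM in bulk GMP. Here bulk CMP replicate 2 stood with the other libraries of its population, and the log2 fold change was 1.54 (SE 0.14, adjusted p = 2.74e-08). Hsp90b1, the ER member of the HSP90 family, had 443, 140.2 and 427 CPM in bulk CMP against 919.8, 906 and 938 CPM in bulk GMP, a log2 fold change of 1.45 (SE 0.29, adjusted p = 0.000922) that was 1.07 without both deviating libraries. Its exons overlap those of other gene models over 15.7% of their length, so part of its counts is uncertain. Hspa5 had 905, 347 and 938 CPM in bulk CMP and 1412, 1306 and 1356 CPM in bulk GMP. All bulk GMP libraries lay above all bulk CMP libraries, with a log2 fold change of 0.89 (SE 0.24, adjusted p = 0.00948), which was 0.55 (adjusted p = 7.08e-05) without both deviating libraries. Hspa5 did not pass without scaling factors (1.0, adjusted p = 0.068) or in a fit of bulk CMP and bulk GMP only (0.86, adjusted p = 0.15).

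Dnajb9, a co-chaperone of BiP that binds the sensor IRE1, went the other way. It had 69.5, 70.6 and 56.8 CPM in bulk CMP and 38.3, 46.3 and 47.4 CPM in bulk GMP. The log2 fold change was -0.57 (SE 0.16, adjusted p = 0.012), and the call was lost without bulk GMP replicate 1, which left 0 of the 38 genes lower.

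Of the lectin chaperones and cargo receptors, 3 of 4 were higher. Calr had 1332, 417 and 1268 CPM in bulk CMP and 2757, 2670.1 and 2644 CPM in bulk GMP, a log2 fold change of 1.42 (SE 0.31, adjusted p = 0.00185) that was 1.04 without both deviating libraries and did not pass in the fit of bulk CMP and bulk GMP only (1.38, adjusted p = 0.053). Lman1, a receptor that carries glycoproteins from the ER to the Golgi, had 91.8, 59.5 and 82.4 CPM in bulk CMP and 189, 164 and 175 CPM in bulk GMP (log2 fold change 1.17, SE 0.15, adjusted p = 7.08e-06). Its partner Mcfd2 had a log2 fold change of 0.59 and did not pass. Without both deviating libraries the values were 1.01 for Lman1, which passed, and 0.18 for Mcfd2, which did not.

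Of the stress sensors and transcription factors, 2 of 6 were higher (Xbp1 and Eif2ak3). Xbp1, the factor that raises chaperone and secretory genes, had 83.2, 64.9 and 75.1 CPM in bulk CMP and 130.2, 123 and 133 CPM in bulk GMP, without overlap (log2 fold change 0.79, SE 0.15, adjusted p = 0.000489). Atf4 had 290.4, 259 and 321 CPM in bulk CMP and 294, 301 and 295 CPM in bulk GMP, with a log2 fold change of 0.03 (SE 0.17, adjusted p = 0.922). Ddit3, which encodes CHOP, had 42.2, 15.2 and 41.4 CPM in bulk CMP and 38.7, 36.1 and 30.8 CPM in bulk GMP, with a log2 fold change of 0.07 (SE 0.37, adjusted p = 0.917). For Atf4 and Ddit3 the ranges overlapped, and neither difference passed. In ER-associated degradation, 2 of 4 were higher (Edem1 and Sel1l), and in the translocon and signal peptidase 6 of 8 were.

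Left out together, the 2 deviating libraries changed the count to 33 higher and 1 lower, with 9 genes more than 2-fold higher in place of 15. Of all genes, 10.2% were then called higher and 9.97% lower. Summed levels of 9 genes that respond to handling of the cells (Fos, Jun, Egr1 and heat shock genes) moved with the comparison, from a median of 3541 CPM in bulk CMP to 1994 CPM in bulk GMP. So did markers of other cells, from medians of 176 to 21.8 CPM for 5 megakaryocyte genes, 40.6 to 3.70 CPM for 7 erythroid genes, 81.0 to 200.3 CPM for 5 eosinophil, basophil and mast cell genes and 577 to 919 CPM for 7 monocyte and dendritic genes. The monocyte and dendritic genes did not move 1 way, since 5 of the 7 were higher and 2 lower, down to a log2 fold change of -3.37. The part of the markers and handling genes in the result was not tested. In the same comparison 8 of the 9 genes with an ERSE match were higher (median log2 fold change 1.10), as were 15 of the 22 with a promoter but no match, of which 1 was lower (median 0.78).

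**Figure D2:**
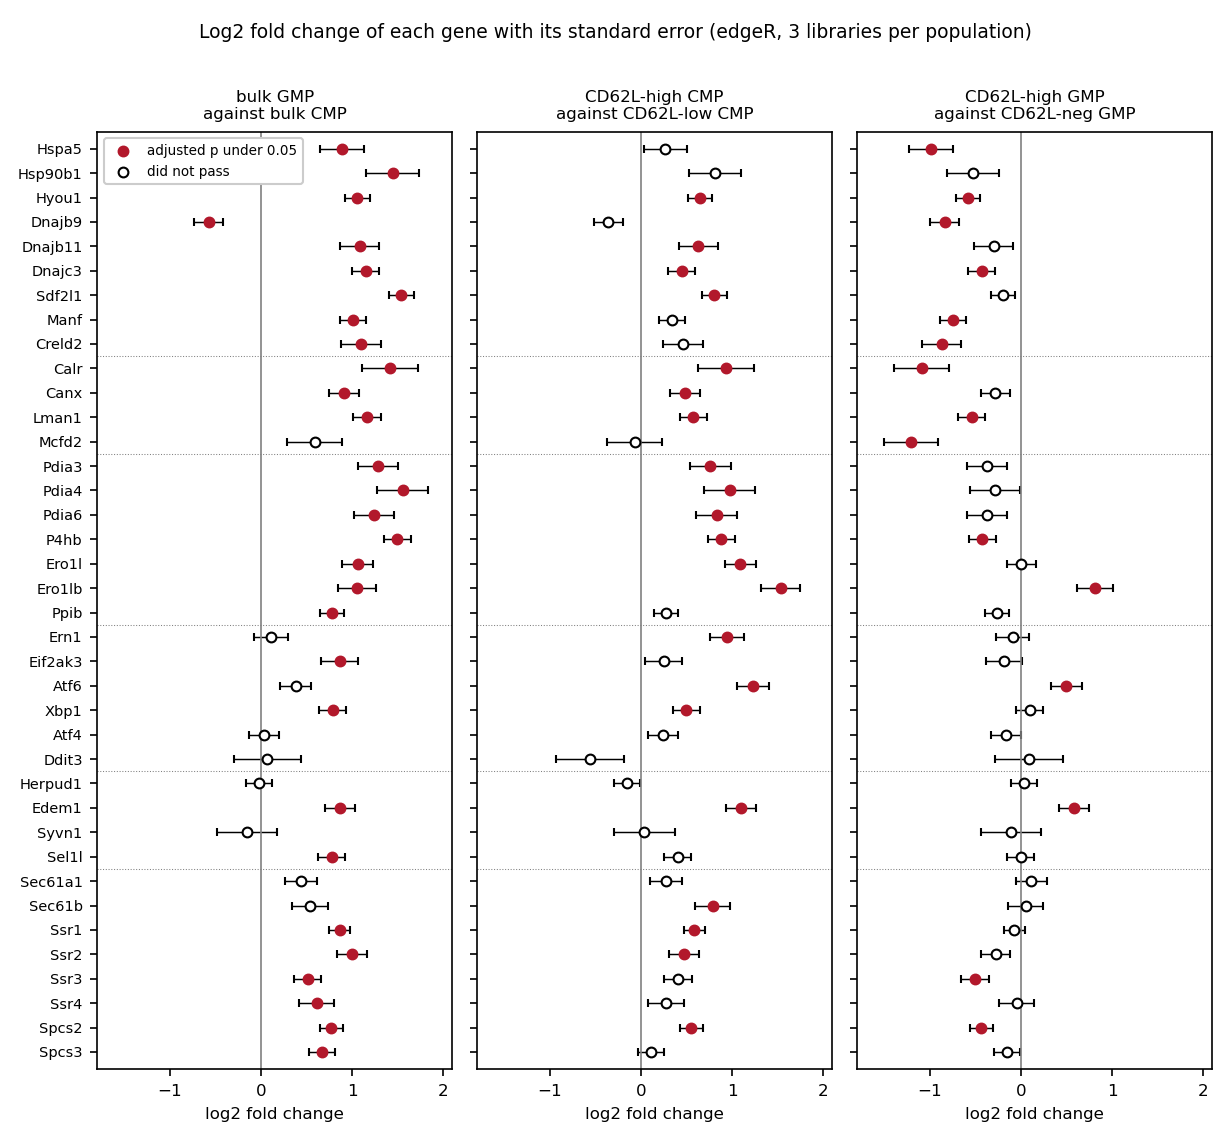
Log2 fold change of each of the 38 genes (points, with bars of 1 SE) in bulk GMP against bulk CMP, CD62L-high CMP against CD62L-low CMP and CD62L-high GMP against CD62L-neg GMP, filled where the adjusted p was under 0.05. Most points lie right of 0 in the first and second panels, with 28 and 21 filled there, and 12 filled points lie left of 0 in the third.

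CD62L-high CMP was compared with CD62L-low CMP to ask whether the folding genes already differ with CD62L among cells without CD16/32. In CD62L-high CMP, 21 of the 38 genes were higher and 0 were lower, where the test called 9.94% of all genes higher and 7.27% lower. The median log2 fold change was 0.49, against 0.01 for all genes. For 28 genes the libraries did not overlap and were higher, against 21.1% of all genes, and for 0 genes they were lower without overlap (17.8%). With a fold over 2 as well, 4 were higher and 0 lower, against 5.62% and 4.84% of all genes. All 5 core granule genes were higher too, with log2 fold changes from 1.26 for Prss57 to 2.81 for Prtn3, and 2.67 for Mpo. By role, 4 of 9 chaperones, 3 of 4 lectin chaperones and cargo receptors, 6 of 7 folding enzymes, 3 of 6 sensors and transcription factors, 1 of 4 degradation genes and 4 of 8 translocon and signal peptidase genes were higher.

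Pdia4, P4hb and Calr were among the 8 genes with the largest differences both here and in the bulk comparison, and the other 5 here were oxidases, sensors and a degradation gene. Ero1lb had 6.54, 8.04 and 8.52 CPM in CD62L-low CMP and 23.9, 26.5 and 16.6 CPM in CD62L-high CMP, a log2 fold change of 1.54 (SE 0.21, adjusted p = 9.41e-06). Ero1l, the other disulfide oxidase, had 17.9, 14.4 and 10.8 CPM against 34.0, 30.7 and 27.6 CPM (1.09, SE 0.17, adjusted p = 5.23e-05). For both oxidases every CD62L-high library lay above every CD62L-low library. Edem1, a lectin that directs misfolded glycoproteins to degradation, had 37.5, 38.0 and 38.3 CPM in CD62L-low CMP and 84.7, 79.8 and 79.3 CPM in CD62L-high CMP (1.10, SE 0.17, adjusted p = 2.65e-05).

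Sensors differed here as well. Atf6 had 41.5, 29.7 and 37.4 CPM in CD62L-low CMP and 83.3, 79.4 and 92.7 CPM in CD62L-high CMP, a log2 fold change of 1.23 (SE 0.17, adjusted p = 1.07e-05). Ern1 had 76.2, 63.5 and 83.0 CPM against 145, 155 and 128 CPM (0.95, SE 0.19, adjusted p = 0.000575). Neither gene's ranges overlapped. Xbp1, the target of IRE1, had 46.6, 43.2 and 51.0 CPM against 78.2, 58.3 and 62.1 CPM. Its log2 fold change was 0.50 (SE 0.15, adjusted p = 0.022), and it did not pass without CD62L-low CMP replicate 1 (0.49), CD62L-low CMP replicate 2 (0.43) or CD62L-high CMP replicate 1 (0.35). It did not pass with no filter on low counts (0.51, adjusted p = 0.059) or without scaling factors (0.53, adjusted p = 0.16) either.

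Of the chaperones and isomerases, P4hb had 291, 314 and 266 CPM in CD62L-low CMP and 572, 500.4 and 533 CPM in CD62L-high CMP (log2 fold change 0.88, SE 0.15, adjusted p = 8.78e-05). Calr had 755, 764 and 755 CPM against 1414, 1484 and 1453 CPM (0.94, SE 0.30, adjusted p = 0.0345), and Pdia4 had 119.5, 134 and 153 CPM against 263, 260.1 and 278 CPM (0.98, SE 0.28, adjusted p = 0.0166). Calr and Pdia4 were even within both populations, and their SE comes from a spread estimated over all libraries, the deviating ones included. Without any 1 of the 6 CMP fraction libraries Calr no longer passed (0.92 to 0.95), and Pdia4 no longer passed without CD62L-low CMP replicate 1 (0.89), CD62L-low CMP replicate 2 (0.96) or CD62L-high CMP replicate 3 (0.94). Without scaling factors neither Calr (0.97, adjusted p = 0.16) nor Pdia4 (1.02, adjusted p = 0.11) passed. Hspa5 had 500.0, 532 and 439 CPM in CD62L-low CMP and 609, 557 and 602 CPM in CD62L-high CMP. The ranges did not overlap, but the log2 fold change of 0.27 (SE 0.24, adjusted p = 0.546) did not pass, and without both deviating libraries it was 0.24 and passed (adjusted p = 0.034).

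Atf4 had 154, 227 and 136 CPM in CD62L-low CMP and 181, 205 and 224 CPM in CD62L-high CMP (log2 fold change 0.24, SE 0.17, adjusted p = 0.406). Ddit3 had 18.6, 28.6 and 20.7 CPM against 10.6, 21.3 and 14.0 CPM (-0.56, SE 0.37, adjusted p = 0.375). Both overlapped between the populations, and neither passed.

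Without both deviating libraries the counts in CD62L-high CMP were 27 higher and 0 lower, against 14% and 10.8% of all genes. The count of higher genes fell to 13 without CD62L-low CMP replicate 2 (7.03% of all genes). It also fell to 13 without CD62L-high CMP replicate 1 (7.07% of all genes). Without scaling factors 8 were higher and 0 lower, against 7.45% and 5.23% of all genes. Markers of other cells moved with this comparison. Medians of the summed levels were 212 CPM in CD62L-low CMP against 1.46 CPM in CD62L-high CMP for 7 erythroid genes (1 of which was at 0 in CD62L-high CMP), 734 against 19.8 CPM for 5 megakaryocyte genes, 37.0 against 1258 CPM for 7 monocyte and dendritic genes, and 3783 against 1748 CPM for the 9 handling genes. For 7 B and plasma cell genes, of which 3 passed the filter on low counts, they were 8.55 against 175 CPM. Their part in the result was not tested.

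**Figure D3:**
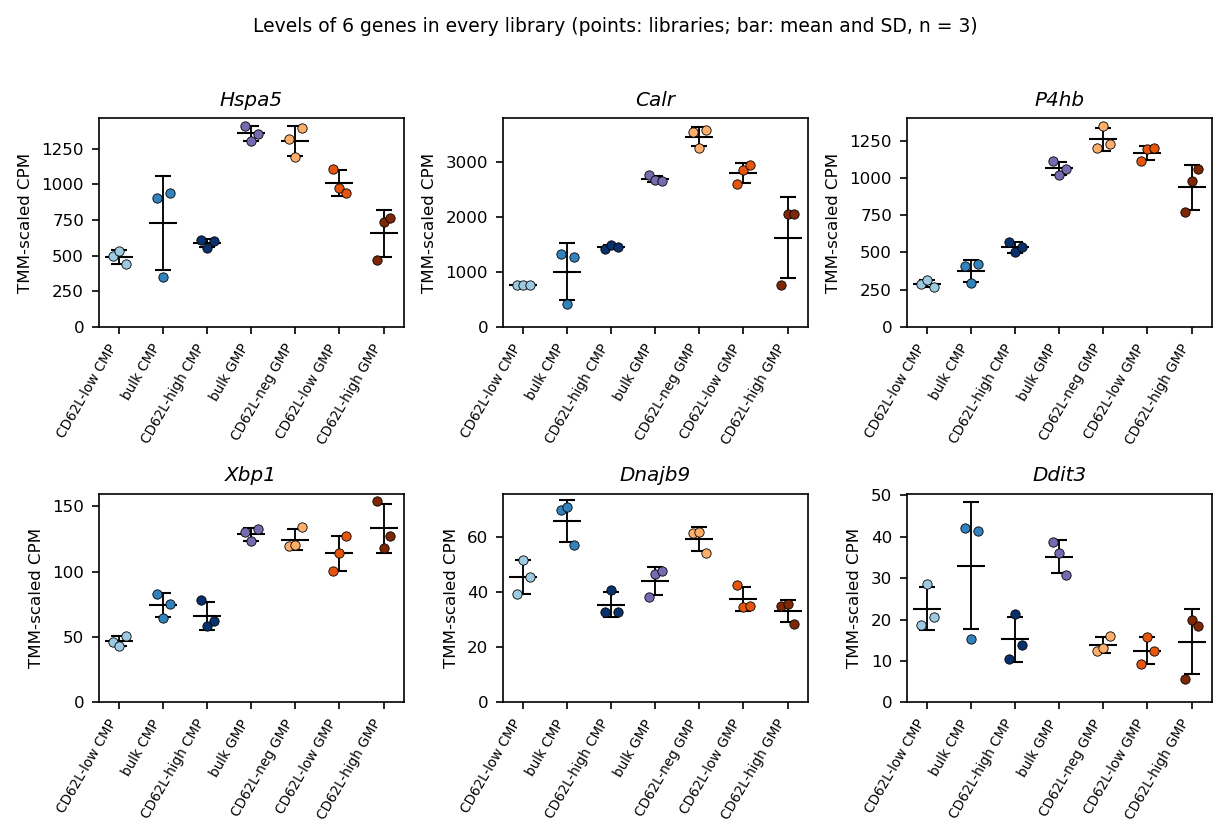
CPM of Hspa5, Calr, P4hb, Xbp1, Dnajb9 and Ddit3 in each library (points) of the 7 populations, with the mean and SD of 3 libraries. Hspa5, Calr and P4hb are higher in bulk GMP than in either CMP fraction and lower in CD62L-high GMP than in CD62L-neg GMP, while Xbp1 stays at 100.3 to 154 CPM in all 12 GMP libraries.

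Among GMPs, 3 comparisons were made between CD62L-neg GMP, CD62L-low GMP and CD62L-high GMP. They share libraries with each other, so their values are set side by side. In CD62L-low GMP against CD62L-neg GMP, 0 of the 38 genes were higher and 1, Dnajb9, was lower in edgeR's quasi-likelihood test, where 2.92% of all genes were called higher and 3.47% lower. At an unadjusted p under 0.05 there were 2 higher and 2 lower, and DESeq2 called 0 higher and 1 lower. Libraries did not overlap for 3 higher and 10 lower genes, against 12.0% and 12.9% of all genes, and the median log2 fold change was -0.08. With a fold over 2 as well, 0 passed in either direction, against 1.84% and 2.48% of all genes. None of the 5 core granule genes passed (0 higher and 0 lower), and Mpo differed by -0.07. Of a wider list of 11 granule cargo genes that includes these 5, 3 were higher and 1 was lower.

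In CD62L-high GMP against CD62L-neg GMP, 3 genes were higher (Ero1lb, Edem1 and Atf6) and 12 were lower, against 8.28% and 8.65% of all genes. Without scaling factors the split was 0 higher and 5 lower, against 4.76% and 7.7% of all genes. The median log2 fold change of all genes was then -0.18 in place of -0.04. In that fit Hspa5 (-1.10, adjusted p = 0.051), Calr (-1.19, adjusted p = 0.072), Ero1lb (0.67, adjusted p = 0.11) and Edem1 (0.42, adjusted p = 0.10) did not pass. Libraries did not overlap for 3 higher and 18 lower genes, against 15.2% and 17.0% of all genes, and the median log2 fold change was -0.27. With a fold over 2 as well, 0 were higher and 2 lower, against 4.49% and 6.01% of all genes. The 12 lower genes were 6 of the 9 chaperones (Hspa5, Hyou1, Dnajb9, Dnajc3, Manf and Creld2), 3 of the 4 lectin chaperones and cargo receptors (Calr, Lman1 and Mcfd2), P4hb, and the translocon and signal peptidase genes Ssr3 and Spcs2. Of the core granule genes 0 were higher and 2 were lower, Ctsg (-0.77) and Prss57 (-1.89), while Mpo had a log2 fold change of -0.23 (adjusted p = 0.46). Granule cargo did not move 1 way, since of the wider list of 11 genes 3 were higher and 4 lower. Mean levels in CD62L-neg and CD62L-high GMP were 28.0 and 215 CPM per kilobase for Lyz2 and 5.38 and 19.1 for Ctsc. They were 394 and 131 CPM per kilobase for Srgn.

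In CD62L-low GMP against CD62L-high GMP, 0 genes were higher and 0 lower in edgeR's quasi-likelihood test, against 1.17% and 0.858% of all genes. At an unadjusted p under 0.05 there were 10 higher and 1 lower, DESeq2 called 2 higher and 0 lower, and 5 were higher without bulk CMP replicate 2. Libraries did not overlap for 17 genes that were higher in CD62L-low GMP and 1 that was lower (8.86% and 9.53% of all genes), with a median log2 fold change of 0.19. A fold over 2 was met by 0 genes in either direction, against 0.885% and 0.331% of all genes. Here Prss57 alone of the core granule genes passed, and it was higher in CD62L-low GMP (1.27). Of the wider list of 11 cargo genes, 2 were higher and 2 lower.

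Hspa5 had 1320.4, 1193 and 1399 CPM in CD62L-neg GMP, 1112, 973 and 943 CPM in CD62L-low GMP and 468, 739 and 768 CPM in CD62L-high GMP. The 3 populations stood in that order without overlap. Its log2 fold change was -0.99 in CD62L-high against CD62L-neg GMP (SE 0.24, adjusted p = 0.00487), -0.37 in CD62L-low against CD62L-neg GMP (SE 0.24, adjusted p = 0.512) and 0.62 in CD62L-low against CD62L-high GMP (SE 0.24, adjusted p = 0.234). Without both deviating libraries the values were -0.80, -0.38 and 0.42, and all 3 passed. Without bulk CMP replicate 2 alone the last was 0.62 and passed.

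Calr had 3542, 3256 and 3576 CPM in CD62L-neg GMP, 2589, 2849 and 2935 CPM in CD62L-low GMP and 766, 2050.4 and 2046 CPM in CD62L-high GMP. These populations also stood in that order without overlap, and the lowest library was the deviating one. The log2 fold change in CD62L-high against CD62L-neg GMP was -1.09 (SE 0.30, adjusted p = 0.0136). It was -0.76 and passed without both deviating libraries, and -0.75 and did not pass without CD62L-high GMP replicate 1 alone. Mcfd2, the partner of Lman1, had 67.4, 60.4 and 78.4 CPM in CD62L-neg GMP and 21.5, 33.5 and 34.3 CPM in CD62L-high GMP, a log2 fold change of -1.20 (SE 0.30, adjusted p = 0.0056). Without both deviating libraries it was -1.03 and passed.

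Manf, an ER-resident cofactor of BiP, had 156, 168 and 173 CPM in CD62L-neg GMP and 80.6, 102 and 113 CPM in CD62L-high GMP (log2 fold change -0.75, SE 0.14, adjusted p = 0.000433). Creld2, which also responds to ER stress, had 64.3, 52.6 and 72.8 CPM against 21.8, 41.9 and 39.9 CPM (-0.87, SE 0.21, adjusted p = 0.00537). Without both deviating libraries the log2 fold changes were -0.63 for Manf and -0.64 for Creld2, and each passed. Dnajb9 had 61.4, 61.8 and 53.9 CPM in CD62L-neg GMP, 42.3, 34.7 and 34.9 CPM in CD62L-low GMP and 35.0, 35.7 and 28.5 CPM in CD62L-high GMP. All CD62L-low and CD62L-high GMP libraries lay below all CD62L-neg GMP libraries. The log2 fold change of Dnajb9 was -0.84 in CD62L-high GMP (SE 0.16, adjusted p = 0.000447) and -0.66 in CD62L-low GMP (SE 0.16, adjusted p = 0.00907), the latter not passing without CD62L-low GMP replicate 2 (-0.60) or replicate 3 (-0.60).

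The 3 genes that were higher in CD62L-high GMP are 7.89% of the 38, near the 8.28% of all genes called higher. Their number is thus no result about the 38. They were an oxidase, a degradation lectin and a sensor. Ero1lb had 20.4, 17.99 and 27.2 CPM in CD62L-neg GMP and 41.5, 38.2 and 36.0 CPM in CD62L-high GMP (log2 fold change 0.82, SE 0.20, adjusted p = 0.00504). Edem1 had 91.3, 86.1 and 101 CPM against 174, 129 and 114 CPM (0.58, SE 0.16, adjusted p = 0.0129), and it did not pass without CD62L-neg GMP replicate 2 (0.53) or CD62L-high GMP replicate 1 (0.40). Atf6 had 62.7, 67.5 and 56.5 CPM against 104, 76.7 and 83.1 CPM (0.50, adjusted p = 0.044), and did not pass without both deviating libraries (0.35, adjusted p = 0.11). All 3 were also higher in CD62L-high than in CD62L-low CMP.

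Xbp1 had 119.7, 120.1 and 134 CPM in CD62L-neg GMP, 100.3, 114 and 127 CPM in CD62L-low GMP and 154, 118 and 127 CPM in CD62L-high GMP. The ranges overlapped, and the log2 fold changes were -0.13 in CD62L-low against CD62L-neg GMP (adjusted p = 0.785), 0.10 in CD62L-high against CD62L-neg GMP (adjusted p = 0.737) and -0.22 in CD62L-low against CD62L-high GMP (adjusted p = 0.566). Atf4 had 285, 247 and 254 CPM, 206, 277 and 264 CPM, and 206, 261 and 235 CPM in the same order, with log2 fold changes of -0.07, -0.16 and 0.09 that did not pass (adjusted p = 0.92, 0.585 and 0.884). Ddit3 had 12.4, 13.1 and 16.1 CPM, 9.33, 15.8 and 12.3 CPM, and 5.55, 19.9 and 18.5 CPM, with log2 fold changes of -0.16, 0.09 and -0.24 that did not pass either (adjusted p = 0.924, 0.92 and 0.857). Of these 3 transcription factors none passed in any of the 3 comparisons between GMP fractions, at the adjusted p-values given.

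Without both deviating libraries the counts were 1 higher and 5 lower in CD62L-low against CD62L-neg GMP, against 4.9% and 5.86% of all genes. They were 2 higher and 13 lower in CD62L-high against CD62L-neg GMP (8.99% and 9.7% of all genes). In CD62L-low against CD62L-high GMP they were 3 higher and 0 lower (1.63% and 1.35% of all genes). In CD62L-high against CD62L-neg GMP, 7 genes were lower without CD62L-neg GMP replicate 3 (6.66% of all genes) and 7 without CD62L-high GMP replicate 1 (6.45%). There, 1 gene was higher without CD62L-neg GMP replicate 2 (5.97% of all genes) and 1 without CD62L-high GMP replicate 1 (5.94%). Other markers moved with the GMP fractions. The summed level of 5 eosinophil, basophil and mast cell genes (Epx, Prg2, Mcpt8, Cpa3 and Ms4a2) was 1643 to 2560 CPM in CD62L-neg GMP, 21.1 to 23.4 CPM in CD62L-low GMP and 3.18 to 6.96 CPM in CD62L-high GMP, where Cpa3 was at 0 in all 3 libraries. That of 7 monocyte and dendritic genes had medians of 68.4 CPM in CD62L-neg GMP, 805 CPM in CD62L-low GMP and 1426 CPM in CD62L-high GMP, and that of 5 megakaryocyte genes 114, 5.31 and 0.57 CPM. In the same order, medians were 16.8, 94.6 and 159.9 CPM for 7 B and plasma cell genes, of which 3 passed the filter on low counts. For 4 T and NK cell genes, of which 1 passed that filter, they were 138, 77.3 and 31.4 CPM. They were 2204, 1710 and 1323 CPM for the 9 handling genes and 2103, 2367 and 3101 CPM for 6 proliferation genes. Their part in the result was not tested.

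The CD62L effect was then compared between CMPs and GMPs by an interaction term, the log2 fold change of CD62L-high against CD62L-neg GMP minus that of CD62L-high against CD62L-low CMP. The 4 populations share no library. The contrasts are unlike, since the study divided CMPs over their whole CD62L range and took CD62L-neg and CD62L-high GMP from its ends. Cell content differed too. Of 5 eosinophil, basophil and mast cell genes, all 5 had a lower effect in GMPs, with a median difference of -10.9. The part of sorting and cell content in the result was not tested. Of the 38 genes, 0 had a higher and 19 a lower effect in GMPs, where the test called 2.30% of all genes higher and 5.05% lower. With a difference over 2-fold as well, 0 were higher and 13 lower, against 1.74% and 4.19% of all genes. The median difference was -0.82, against -0.06 for all genes. The 19 comprised 7 of 9 chaperones, 3 of 4 lectin chaperones and cargo receptors, 4 of 7 folding enzymes, 1 of 6 sensors and transcription factors (Ern1), 0 of 4 degradation genes and 4 of 8 translocon and signal peptidase genes. All 5 core granule genes had a lower effect in GMPs as well, by -1.83 for Elane to -3.57 for Ctsg. Of the wider list of 11 cargo genes, 2 had a higher and 8 a lower effect in GMPs.

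Calr had the largest difference, -2.03 (SE 0.43, adjusted p = 0.00337), with an effect of 0.94 in CMPs and -1.09 in GMPs. Without both deviating libraries the difference of Calr was -1.67 and passed. P4hb differed by -1.31 (SE 0.21, adjusted p = 0.000163) and Hyou1, a large ER chaperone that serves as nucleotide exchange factor of BiP, by -1.23 (SE 0.19, adjusted p = 0.000128). Hyou1 had 135, 141 and 142 CPM in CD62L-low CMP, 224, 216 and 214 CPM in CD62L-high CMP, 459.7, 382 and 468 CPM in CD62L-neg GMP and 233, 314 and 326 CPM in CD62L-high GMP. In CMPs the CD62L-high libraries were above the others, and in GMPs they were below them. Creld2 (-1.33, SE 0.31, adjusted p = 0.00685), Hspa5 (-1.25, SE 0.34, adjusted p = 0.0212), Hsp90b1 (-1.34, SE 0.40, adjusted p = 0.0437), Pdia6 (-1.21, SE 0.31, adjusted p = 0.0161) and Pdia3 (-1.13, SE 0.31, adjusted p = 0.0253) differed in the same direction. Hspa5 did not pass in 5 of the fits that left out 1 library (-1.06 to -1.24), Pdia3 in 7 (-1.02 to -1.14), Pdia6 without CD62L-low CMP replicate 3 (-1.10), and Hsp90b1 in 16 (-1.05 to -1.42). Xbp1 (-0.40, adjusted p = 0.307), Atf4 (-0.41, adjusted p = 0.375) and Ddit3 (0.65, adjusted p = 0.565) did not pass. Without both deviating libraries 1 gene had a higher effect in GMPs, which was Ddit3 (1.05, adjusted p = 0.036), and 26 had a lower effect, among them all 19. Of all genes, 3.92% had a higher and 7.86% a lower effect in that fit. Without scaling factors 10 had a lower effect, against 3.99% of all genes. Creld2 (-1.48, adjusted p = 0.064), Hspa5 (-1.41, adjusted p = 0.14), Hsp90b1 (-1.48, adjusted p = 0.16), Pdia6 (-1.36, adjusted p = 0.12) and Pdia3 (-1.30, adjusted p = 0.15) did not pass there.

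Genes with and without an ERSE match both took part in the difference. Of the 9 with a match, 7 had a lower CD62L effect in GMPs (median -1.21), and of the 22 with a promoter but no match, 8 did (median -0.70). In CD62L-high against CD62L-neg GMP, 4 of the 9 were lower and 1, Ero1lb, was higher, against 5 lower and 1 higher of the 22.

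**Figure D4:**
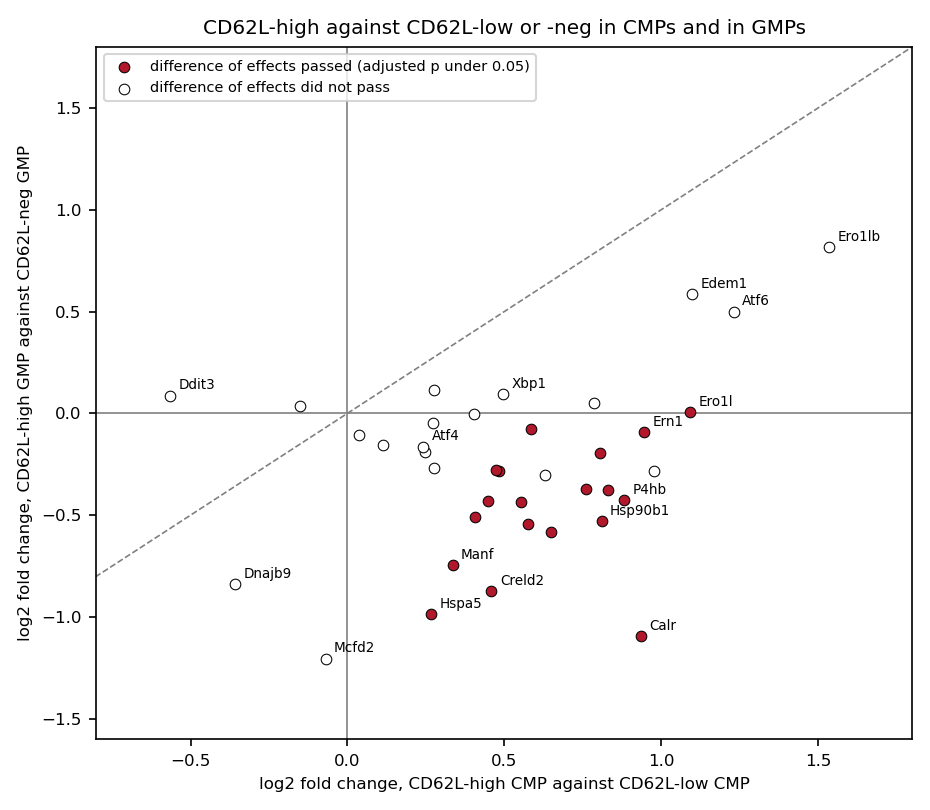
Log2 fold change with CD62L in CMPs (horizontal, CD62L-high against CD62L-low CMP) and in GMPs (vertical, CD62L-high against CD62L-neg GMP) for each of the 38 genes, filled where the difference of both passed the test. Filled points (19) lie below the diagonal, most of them right of 0 and below 0, with Calr farthest at 0.94 and -1.09.

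Granule load was taken as the summed CPM of Mpo, Elane, Prtn3, Ctsg and Prss57. It was 882 to 1783 CPM in CD62L-low CMP, 4742 to 5392 CPM in bulk CMP, 7263 to 8459 CPM in CD62L-high CMP, 20784 to 21770 CPM in bulk GMP, 24154 to 26106 CPM in CD62L-neg GMP, 22462 to 25301 CPM in CD62L-low GMP and 19585 to 25616 CPM in CD62L-high GMP. The summed level of the 38 folding genes was 4676 to 4968 CPM in CD62L-low CMP, 4594 to 7067 CPM in bulk CMP, 7205 to 7503 CPM in CD62L-high CMP, 12465 to 12971 CPM in bulk GMP, 13146 to 14184 CPM in CD62L-neg GMP, 12318 to 12441 CPM in CD62L-low GMP and 7717 to 10585 CPM in CD62L-high GMP. Both sums were lowest in CD62L-low CMP by mean and highest in CD62L-neg GMP. Abundant transcripts weigh most in both, so neither sum stands for each of its genes. In CD62L-neg GMP replicate 1, Mpo had 259135 counts and Elane, the next of the granule genes, had 30809. Calr had 46347 counts there, and Hspa5, the next of the 38, had 17277. In CD62L-high GMP the sum of the folding genes was below that of all other GMP libraries, and in 2 of its 3 libraries granule load was as well. Replicates 2 and 3 had granule loads of 19585 and 19641 CPM and folding sums of 10328 and 10585 CPM. Only the deviating replicate 1 combined a high granule load, 25616 CPM, with a low sum of folding genes, 7717 CPM, and the overlap in granule load with the other GMP populations came from that library.

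**Figure D5:**
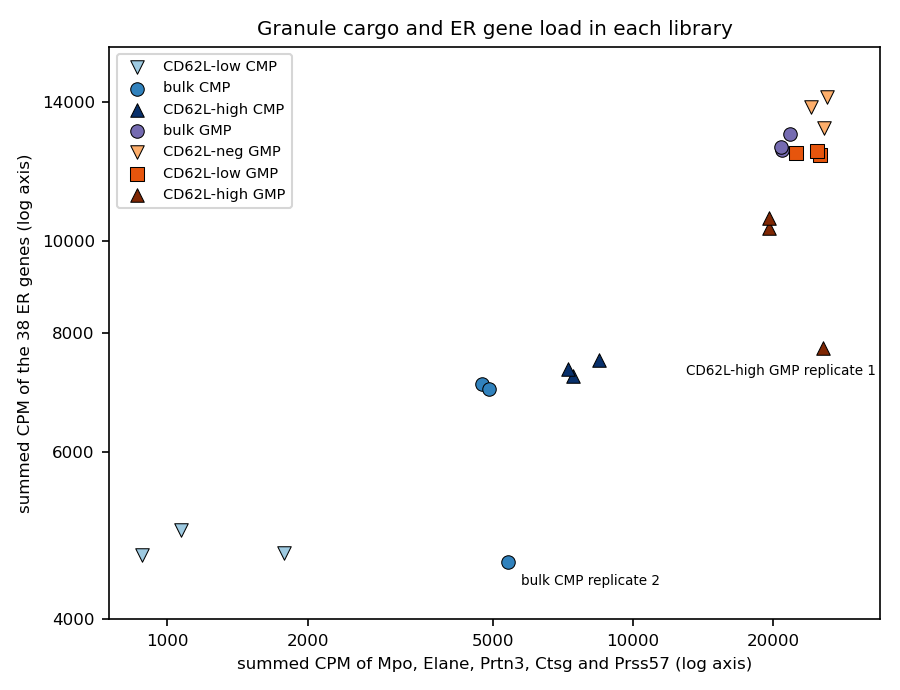
Summed CPM of the 38 folding genes (vertical, log axis) against summed CPM of 5 granule cargo genes (horizontal, log axis) in each of the 21 libraries, coloured by population, with both deviating libraries labelled. CMP libraries lie at the lower left and most GMP libraries at the upper right, and the 3 CD62L-high GMP libraries lie below the other GMP libraries at 7717 to 10585 CPM. Of these 3, replicates 2 and 3 also lie left of the other GMP libraries, and the labelled replicate 1 does not.

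Correlations of each gene with granule load were computed over the 7 population means of log2(CPM + 1) as a description. The 3 CMP means and the 4 GMP means form separate clusters and share library preparation and scaling, so the values contain the step between CMPs and GMPs. The median r of the 38 genes was 0.91, against -0.01 for all genes, and 30 of the 38 had r above 0.8, against 10.3% of all genes. By this r, Ero1l (0.99), Sec61b (0.99), a subunit of the translocation channel, and Ssr1 (0.97), a subunit of the translocon-associated complex, were the closest. By rank (Spearman rho) they had 0.68, 0.82 and 0.82, and Ssr2 was the closest with a rho of 1. Over the 4 GMP means alone their r was -0.74 for Ero1l, 0.40 for Sec61b and 0.40 for Ssr1. Ero1l thus did not rise with granule load among GMP populations. Dnajb9 (-0.21) and Ddit3 (-0.37) had a negative r, and Herpud1 (0.34), Syvn1 (0.57), Mcfd2 (0.62) and Atf4 (0.66) were among the lowest of the others.

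Over the 4 GMP population means alone the median r was 0.49, against 0.07 for all genes. In that range 4 genes had r above 0.8, namely Ssr2 (0.91), P4hb (0.88), Spcs3 (0.84) and Ssr4 (0.81), and 4 had r below -0.8, namely Atf6 (-0.92), Sec61a1 (-0.89), Ero1lb (-0.88) and Edem1 (-0.84). Each count is 10.5% of the 38, near the 11.5% of all genes above 0.8 and the 12.6% below -0.8. With 4 points and a narrow range of granule load, these values carry little precision. Without both deviating libraries the median r was 0.95 over 7 populations and 0.63 over the 4 GMP populations. There, 11 of the 38 had r above 0.8 and 1 below -0.8 over the GMP means, against 15.4% and 15.3% of all genes, so these counts over the GMP means depend on the deviating libraries.

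Of 88 other genes of the secretory pathway, 86 were tested. In bulk GMP against bulk CMP 35 were higher and 2 lower (median log2 fold change 0.41), against 9.72% and 10.9% of all genes. In CD62L-high against CD62L-low CMP 21 were higher and 4 lower (median 0.23), against 9.94% and 7.27% of all genes. In bulk GMP the largest differences were those of Fkbp11 (1.68), Ostc (1.47), Fkbp2 (1.40) and Vimp (1.39), and the lower genes were Bbc3 (-1.71), a cell death gene, and Ppp1r15a (-0.90), which encodes the phosphatase subunit that ends PERK signaling. In CMPs Wfs1 (2.93), Erp29 (1.89), P4ha1 (1.32) and Dnajc10 (1.14) were higher, and Ppp1r15a (-1.52), Asns (-1.07), Derl1 (-0.52) and Ppp1r15b (-0.51) were lower in CD62L-high CMP.

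Within GMPs, 4 of the 86 were higher and 1 lower in CD62L-low against CD62L-neg GMP (2.92% and 3.47% of all genes). In CD62L-high against CD62L-neg GMP 6 were higher and 7 lower (8.28% and 8.65% of all genes), and in CD62L-low against CD62L-high GMP 0 were higher and 1 lower (1.17% and 0.858%). Txndc5, a disulfide isomerase, was higher in CD62L-low GMP (1.31) and in CD62L-high GMP (1.87) than in CD62L-neg GMP, and lower in CD62L-low than in CD62L-high GMP (-0.57). Atf3 (1.82 and 1.61) and Dnajc10 (0.68 and 0.85) were higher in both fractions, Erp29 by 0.53 in CD62L-low GMP, and Wfs1 by 1.30 in CD62L-high GMP. Edem3, a relative of Edem1, was lower in both fractions (-1.70 and -1.88), with 196, 256 and 186 CPM in CD62L-neg GMP and 55.7, 55.0 and 62.6 CPM in CD62L-high GMP. Fkbp11 (-1.55), Asns (-1.17) and Stt3b (-0.61) were also lower in CD62L-high GMP. For the difference between the CD62L effects in GMPs and CMPs, 3 of the 86 were higher (3.49%) and 14 lower (16.3%). Of all genes, 2.30% were higher and 5.05% lower. The 3 higher genes were Bbc3 (1.94), Atf3 (1.69) and Txndc5 (0.89). The 14 lower genes were led by Edem3 (-1.86), Vimp (-1.42), Edem2 (-1.39) and Erp29 (-1.27), and the median of the 86 was -0.37.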

How the data were processed

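The authors sorted the cells, demultiplexed reads with bcl2fastq, trimmed with Trim Galore, used HISAT2 for alignment to mm10, and deposited HTSeq read counts per Ensembl gene, whole and unscaled, with no versions, annotation release or strand setting given in the sources used here. The labels name a SMARTer stranded kit and the paper a SMART-Seq kit, so strand could not be settled and overlapping genes are uncertain. Of 47643 identifiers, 47224 (99.12%) matched a symbol.

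From these counts, 1 model with 7 populations was fitted to all 21 libraries in R 4.3.3 with edgeR 4.0.16 (filterByExpr, TMM scaling, quasi-likelihood F test, two-sided, no covariate, Benjamini-Hochberg over 14801 genes). A gene passed at an adjusted p under 0.05, and counts with a fold over 2 are beside it. CPM used TMM library sizes, and levels per kilobase the union of exons in GRCm38. The scripts were tested on simulated data. The 38 genes and all lists were chosen with earlier results of these data known. Named in full were up to 8 passing, non-overlapping genes with the largest change per comparison, and Hspa5, Xbp1, Atf4 and Ddit3. Atf6 in GMPs, Mcfd2 in bulk populations, Hyou1 levels and genes named for their correlation were added after their values were seen. Of the other secretory genes, up to 4 per direction were named.

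Alternatives were RLE scaling, no scaling, no filter, DESeq2 1.42.0, a fit of the compared populations only, a replicate block, each library left out in turn and, chosen after seeing the data, both deviating libraries left out. Promoters came from RefSeq (GRCm38.p6). Library totals of 6145834 to 15263573 counts limit the precision of low genes such as Ero1lb and Ddit3 most. A check of 1 gene is not reported here.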

Additional observations from a re-analysis of the deposited data

Results flagged for a closer look

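In 19 of the 38 genes the effect of CD62L in GMPs (CD62L-high against CD62L-neg) differed from that in CMPs (CD62L-high against CD62L-low) by the interaction test of edgeR, and all 19 differences were negative on the log2 scale. As said above, both contrasts take unlike parts of the CD62L range and differ in cell content, and the part of this was not tested. Among chaperones the differences were -1.34 for Hsp90b1, -1.33 for Creld2, -1.25 for Hspa5, -1.23 for Hyou1, -1.08 for Manf, -1.0 for Sdf2l1 and -0.88 for Dnajc3. Among lectin chaperones and cargo receptors they were -2.03 for Calr, -1.12 for Lman1 and -0.76 for Canx, and among folding enzymes -1.31 for P4hb, -1.21 for Pdia6, -1.13 for Pdia3 and -1.09 for Ero1l. Ern1 was the only sensor, with -1.04, and Spcs2 (-0.99), Ssr3 (-0.91), Ssr2 (-0.75) and Ssr1 (-0.66) were the translocon and signal peptidase genes.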

How the results depend on the processing

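Limits were the 3 libraries per population, the 2 deviating libraries, and the spread shared over all 21 libraries. Of 55 values of genes named in full by the rule above, 36 passed, and 0 of the 36 changed direction in any alternative run. 14 of the 36 did not pass without scaling factors, 10 in some fit that left out 1 library, 1 with the replicate block and 0 without both deviating libraries. Values named outside that rule are not in these counts. Of those, Atf6 in CD62L-high against CD62L-neg GMP did not pass without both deviating libraries (0.35, adjusted p = 0.11 in edgeR). Dnajb9 in the bulk comparison did not pass without bulk GMP replicate 1. Without scaling factors the median log2 fold change of all genes was 0.24 in the bulk comparison (0.00 with them), -0.18 in CD62L-high against CD62L-neg GMP (-0.04 with them), 0.13 in CD62L-low against CD62L-high GMP (0 with them) and -0.24 in the difference between GMPs and CMPs (-0.06 with them).

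In bulk GMP against bulk CMP, 0 genes were lower without scaling factors, 0 in the fit of those populations only and 0 with a fold over 2, where 15 were higher. Fitted with only their own populations, Calr (1.38, adjusted p = 0.053) and Hspa5 (0.86, adjusted p = 0.15) did not pass there. In CD62L-high against CD62L-low CMP, 8 were higher without scaling factors and 4 with a fold over 2. In CD62L-low against CD62L-neg GMP, 0 were lower without scaling factors, 4 in the fit of those populations only, 5 without both deviating libraries and 0 with a fold over 2, while 1 was higher in the fit of those populations only and 1 without both deviating libraries. In CD62L-high against CD62L-neg GMP, 0 were higher and 5 lower without scaling factors, and 0 were higher and 2 lower with a fold over 2. In CD62L-low against CD62L-high GMP, 3 were higher with no filter, 2 in DESeq2 and 3 without both deviating libraries. For the difference between the CD62L effects, 10 were lower without scaling factors and 1 was higher without both deviating libraries. The median correlation with granule load was 0.49 over the 4 GMP means and 0.63 there without both deviating libraries, against 0.91 over 7. The cause of these moves was not tested.

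With 1 library left out, counts ran from 26 to 32 higher and 0 to 1 lower in the bulk comparison, 13 to 24 higher in CMPs, 0 to 1 higher and 0 to 1 lower in CD62L-low against CD62L-neg GMP, 1 to 3 higher and 7 to 15 lower in CD62L-high against CD62L-neg GMP, 0 to 5 higher in CD62L-low against CD62L-high GMP, and 13 to 25 lower for the difference of effects.

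Reversals were found only in values that had not passed. In the bulk comparison Atf4 was -0.040 with RLE scaling, -0.0072 in the fit of those populations only, -0.040 in DESeq2 and -0.053 without both deviating libraries, and with 1 library left out it ran from -0.043 (without bulk CMP replicate 2) to 0.11. Ddit3 was -0.26 there without both and ran from -0.25 (without bulk CMP replicate 2) to 0.28. In CD62L-low against CD62L-neg GMP, Atf4 ran from -0.14 to 0.064 and Ddit3 from -0.34 to 0.032, both highest without CD62L-low GMP replicate 1. In CD62L-high against CD62L-neg GMP, Xbp1 was -0.061 without scaling factors and -0.032 without both, and ran from -0.022 (without CD62L-high GMP replicate 1) to 0.16, while Ddit3 was -0.0060 without scaling factors and ran from -0.20 (without CD62L-high GMP replicate 2) to 0.47. In CD62L-low against CD62L-high GMP, Ddit3 ran from -0.63 to 0.05 (without CD62L-high GMP replicate 2).

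Replicate numbers were shared between groups, but samples of the same number did not deviate together (correlations from -0.11 to 0.08), so they were not taken as pairs. With the replicate block the counts were 28 higher and 1 lower in the bulk comparison, 20 higher in CMPs, 0 higher and 1 lower in CD62L-low against CD62L-neg GMP, 2 higher and 11 lower in CD62L-high against CD62L-neg GMP, 0 and 0 in CD62L-low against CD62L-high GMP, and 18 lower for the difference of effects, where Hsp90b1 did not pass (-1.34, adjusted p = 0.057).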

Other observations

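Some stress genes were not bracketed by the CD62L fractions of their own bulk population. These genes were singled out after their values were seen. Ddit3 had 30.8 to 38.7 CPM in the 3 bulk GMP libraries and 5.55 to 19.9 CPM in the 9 GMP fraction libraries, so that bulk GMP lay above every fraction library. In CMPs the same gene had 15.2 to 42.2 CPM in bulk and 10.6 to 28.6 CPM in the 6 fraction libraries, which overlapped. The 15.2 CPM was that of the deviating bulk CMP replicate 2. The other bulk CMP libraries, at 41.4 and 42.2 CPM, lay above all 6 fraction libraries. Atf4 had 259 to 321 CPM in bulk CMP against 136 to 227 CPM in CMP fractions, and 294 to 301 CPM in bulk GMP against 206 to 285 CPM in GMP fractions. Herpud1, a degradation gene induced by ER stress, had 84.0 to 107 CPM in bulk CMP against 51.8 to 65.4 CPM in CMP fractions, and 90.1 to 106 CPM in bulk GMP against 65.5 to 91.5 CPM in GMP fractions, where the ranges overlapped. Syvn1, another degradation gene, overlapped in both. It had 19.5 to 99.0 CPM in bulk CMP against 22.3 to 28.8 CPM in CMP fractions. The 99.0 CPM was that of the deviating bulk CMP replicate 2, and the other bulk CMP libraries had 19.5 and 36.2 CPM. In bulk GMP it had 39.1 to 51.4 CPM against 28.4 to 45.8 CPM in GMP fractions. The CMP fraction of intermediate CD62L level was not analysed here, and the GMP fractions were taken from parts of the CD62L range, so bulk GMP also holds cells that are in none of them. No test was made of these differences. The share of all genes whose bulk libraries lie outside the fractions was not counted, so the pattern cannot be called particular to stress genes.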
